A study of Homo sapiens with 9 samples.

Results

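The heat shock transcription factor HSF1 and 9 heat shock proteins or co-chaperones of the cytosol were examined, namely HSPA1A, HSPA1B, HSPA8, HSPH1, HSP90AA1, DNAJA1, DNAJB1, BAG3 and HSPB1. The 10 genes were picked by gene name, with earlier results of these data known, out of the 58735 genes counted in every library. All 10 were among the 16188 genes kept by edgeR's filterByExpr, which drops genes with few counts. RNA came from MDA-MB-231 cells, an established line of triple-negative breast cancer (TNBC), in 9 libraries that fall into 3 groups of 3. The groups were cells given vehicle (DMSO), cells that outlived rising concentrations of erastin (erastin-R) and cells that outlived rising concentrations of RSL3 (RSL3-R), both of which induce ferroptosis, an iron-dependent death by lipid peroxidation. All groups derive from 1 cell line. Whether the surviving cells were 1 clone or a mixture, and whether the agent was still present at harvest, is not given in the sources used here. The labels also do not say whether the 3 libraries of a group came from separate cultures, so p-values measure the spread between these libraries, which may be technical.

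Total counts per library ranged from 15405102 to 17273464, and the coefficient of variation between replicates that edgeR estimated over all genes was 8.56%. Counts are given as CPM, which are counts scaled to the same library size after TMM normalization. The 5 markers of this mesenchymal-like line that were looked up (VIM, CD44, EGFR, AXL and CAV1) lay between 230.5 and 1581 CPM in every library, but 4 of them moved with the groups. AXL and EGFR rose and CAV1 and CD44 fell in both kinds of surviving cells, with the largest changes in CAV1, from 677 ± 15.5 CPM (SD, n = 3) in vehicle to 308 ± 5.66 in erastin-R and 374 ± 9.43 in RSL3-R libraries, and in EGFR, from 391 ± 24.2 to 469 ± 39.2 and 672 ± 11.9 CPM. The 6 luminal and blood cell markers given here (ESR1, PGR, GATA3, FOXA1, PTPRC and CD3E) reached at most 7.11 CPM, and their sum, most of which was GATA3, overlapped between the groups. PTPRC, a marker of blood cells, had 11, 4 and 6 counts in vehicle, 11, 3 and 3 in erastin-R and 19, 24 and 24 in RSL3-R libraries, and was higher in RSL3-R than in vehicle libraries (log2 fold change 1.67, edgeR adjusted p = 0.00818) and than in erastin-R libraries (1.97, edgeR adjusted p = 0.00372), while CD3E had at most 4 counts in any library. The part of these markers in the results for the heat shock genes was not tested. Erastin-R replicate 1 stood apart from the other erastin-R libraries on the third principal component, which held 6.71% of the variance (score -35.7, against 14.4 and 12.97). For 7 of the 10 genes it was the erastin-R library nearest to the vehicle mean. The CPM of the 10 genes are therefore given for each library, and some results, but not all, are also given without it. These are bulk libraries, in which fewer cells of a type and less RNA per cell cannot be told apart.

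Heat shock proteins are chaperones that bind unfolded or partly folded proteins. HSP70 proteins such as HSPA8, which is made at all times, and HSPA1A and HSPA1B, which are strongly inducible by stress, hold short hydrophobic stretches in a cycle driven by ATP. J-domain proteins such as DNAJA1 and DNAJB1 deliver clients and stimulate the ATPase, whereas nucleotide exchange factors such as HSPH1 and BAG3 release them. HSP90 proteins take over clients such as kinases and steroid receptors, and small heat shock proteins such as HSPB1 hold unfolded proteins without ATP. HSF1 is the main activator of these genes upon proteotoxic stress. It is kept inactive by chaperones, is activated largely by trimer formation and phosphorylation of existing protein, and binds heat shock elements, which are inverted repeats of the letters GAA and TTC.

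HSPA1A and HSPA1B are neighbouring genes without introns (GRCh38 chr6:31815464-31817946 and chr6:31827735-31830255, both on the plus strand), and the authors counted only reads that map to 1 place. Their coding sequences of 1926 bases in GENCODE 29 differed at 4 positions, G1710T, G1860C, C1905T and A1920G (HSPA1A base first, counted from the A of the start codon), none of which changes the encoded residue. The last 80 coding bases hold 3 of these 4 differences, and are shown with the differing bases in capitals because they are part of what tells reads of the genes apart:
HSPA1A, coding bases 1847 to 1926: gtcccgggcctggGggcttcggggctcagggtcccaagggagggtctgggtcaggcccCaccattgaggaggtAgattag
HSPA1B, coding bases 1847 to 1926: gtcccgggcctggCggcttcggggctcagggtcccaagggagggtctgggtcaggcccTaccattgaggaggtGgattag
Of the 50-base words in HSPA1A transcripts, 71.3% also occurred in a transcript of another gene, and for HSPA1B it was 73.5%. The longest identical coding run was 1709 bases. Their counts therefore rest mostly on the ends of the transcripts and understate both levels, and the summed count of the pair is reported beside the separate ones. Of HSPA1B's exon bases, 36.5% overlap the transcript AL671762.1 on the same strand, whereas no other annotated gene overlaps the exons of HSPA1A. These bases can include sequence already counted in the 73.5%. For the other 8 genes the shared part was smaller. It was 14.0% for HSP90AA1, 8.23% for HSPA8, 6.88% for DNAJB1 and 5.84% for HSPB1, mostly with pseudogenes or with an overlapping gene, and 1.54% or less for HSF1, DNAJA1, HSPH1 and BAG3.

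The promoters were searched for heat shock elements, to which HSF1 binds. The genes were picked as heat shock genes, so matches above the share of all promoters could follow from that choice. The part of these elements in the changes between groups was not tested. RefSeq promoters (GRCh38.p14, 250 bases before to 50 bases after the start) were matched by symbol for 9 of the 10 genes, all except HSF1. The full element with 3 units, GAANNTTCNNGAA read on both strands, was found in 0.49% of all 35116 promoters, and in 0.608% of the 27305 genes that have one. Of the 9 genes, 3 had it: HSPA8, HSP90AA1 and DNAJA1. The shorter form with 2 units, GAANNTTC or TTCNNGAA, each of which reads the same on both strands and lies within every full element, occurred in 13.5% of all promoters and 16.2% of genes. It was present in 7 of the 9 genes, of which 4 (HSPA1A, HSPA1B, HSPB1 and DNAJB1) had the shorter form only. Neither form was in the windows of HSPH1 and BAG3. These matches are shown because they carry those counts (a further match with 2 units each in HSP90AA1, DNAJA1 and another start of DNAJB1 is not), 5′ to 3′ on the strand of the gene with 8 bases on either side and the element in capitals:
HSPA8, chr11:123062346-123062374, minus strand: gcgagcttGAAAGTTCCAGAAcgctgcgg
HSPA8, chr11:123062171-123062199, minus strand: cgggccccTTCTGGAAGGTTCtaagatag
HSP90AA1, chr14:102087112-102087140, minus strand: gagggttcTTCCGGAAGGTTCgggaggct
DNAJA1, chr9:33025268-33025296, plus strand: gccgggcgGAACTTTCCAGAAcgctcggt
HSPA1A, chr6:31815429-31815452, plus strand: aaaccctgGAATATTCccgacctg
HSPA1B, chr6:31827625-31827648, plus strand: aacccctgGAATATTCccgacctg
DNAJB1, chr19:14518459-14518482, minus strand: gcggggcgGAAGGTTCtggagggg
DNAJB1, chr19:14518429-14518452, minus strand: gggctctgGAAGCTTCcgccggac
HSPB1, chr7:76302483-76302506, plus strand: taacgagaGAAGGTTCcagatgag
The HSPA1A and HSPA1B elements carried the same 8 letters and began 106 and 105 bases before the start. These are matches of letters and no binding was measured.

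**Figure D1:**
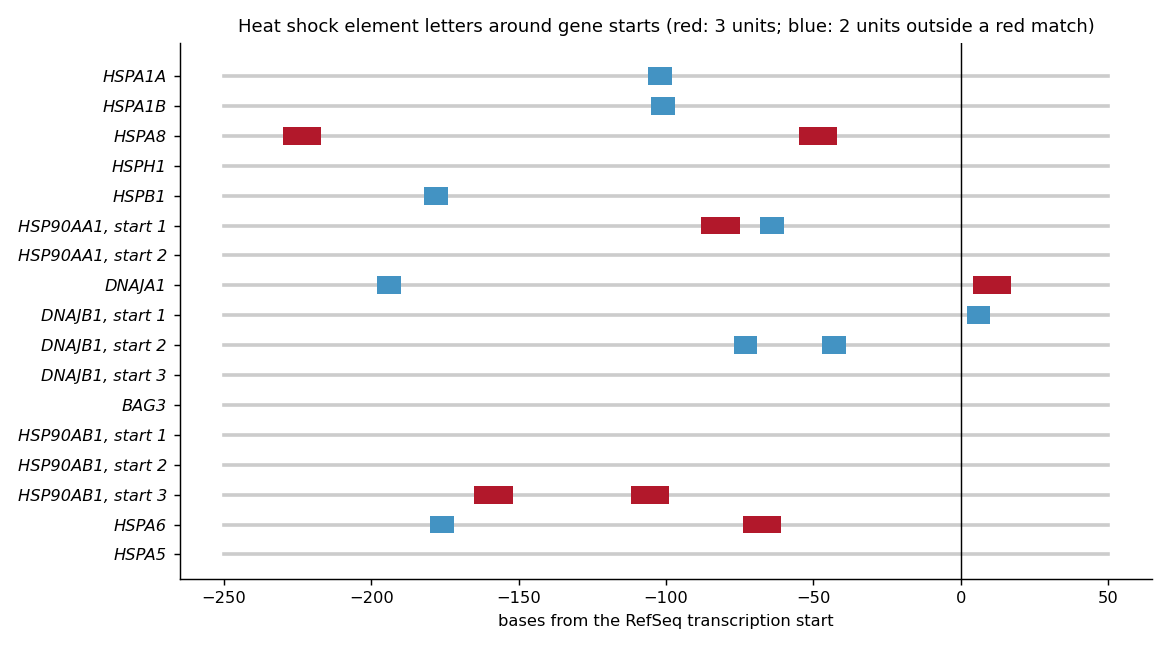
Position of heat shock element letters in RefSeq promoter windows, in bases from the transcription start (x axis), for each annotated start of 9 of the 10 genes and of HSP90AB1, HSPA6 and HSPA5 (rows). Red bars are matches with 3 units and blue bars are matches with 2 units outside a red one; HSPA8 has 2 red matches, and HSPH1, BAG3 and HSPA5 have none of either kind.

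Compared with vehicle, most of the heat shock genes were lower in both kinds of surviving cells. Among erastin-R libraries 8 of the 10 genes were lower, 1 (HSF1) was higher and 1 (HSPB1) did not pass the test, whereas RSL3-R had 9 lower and HSF1 did not pass. Rose and fell are used here for an adjusted p under 0.05 in edgeR's quasi-likelihood test, with Benjamini-Hochberg adjustment over the 16188 genes. At that threshold 26.8% of all genes tested were lower and 27.1% higher for erastin-R, and 24.9% were lower and 23.8% higher for RSL3-R. The median log2 fold change of the 10 genes was -0.89 for erastin-R and -0.83 for RSL3-R, beside -0.004 and 0.005 over all genes. With a fold change of at least 2 as a further condition, 4 of the 10 were lower for erastin-R (6.66% of all genes tested) and 3 for RSL3-R (4.08%). The libraries of the groups did not overlap, with the survivors lower, for 7 genes of erastin-R (29.1% of all genes) and 9 of RSL3-R (31.4%), and with erastin-R higher for HSF1 (28.7%). Together the 10 genes took 0.529% ± 0.0136 (SD, n = 3) of all counts in vehicle cells, 0.343% ± 0.0361 for erastin-R and 0.29% ± 0.00434 for RSL3-R. Without erastin-R replicate 1 the counts in erastin-R cells were again 8 lower and 1 higher, with a median of -0.93. Both comparisons use the same vehicle libraries.

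**Figure D2:**
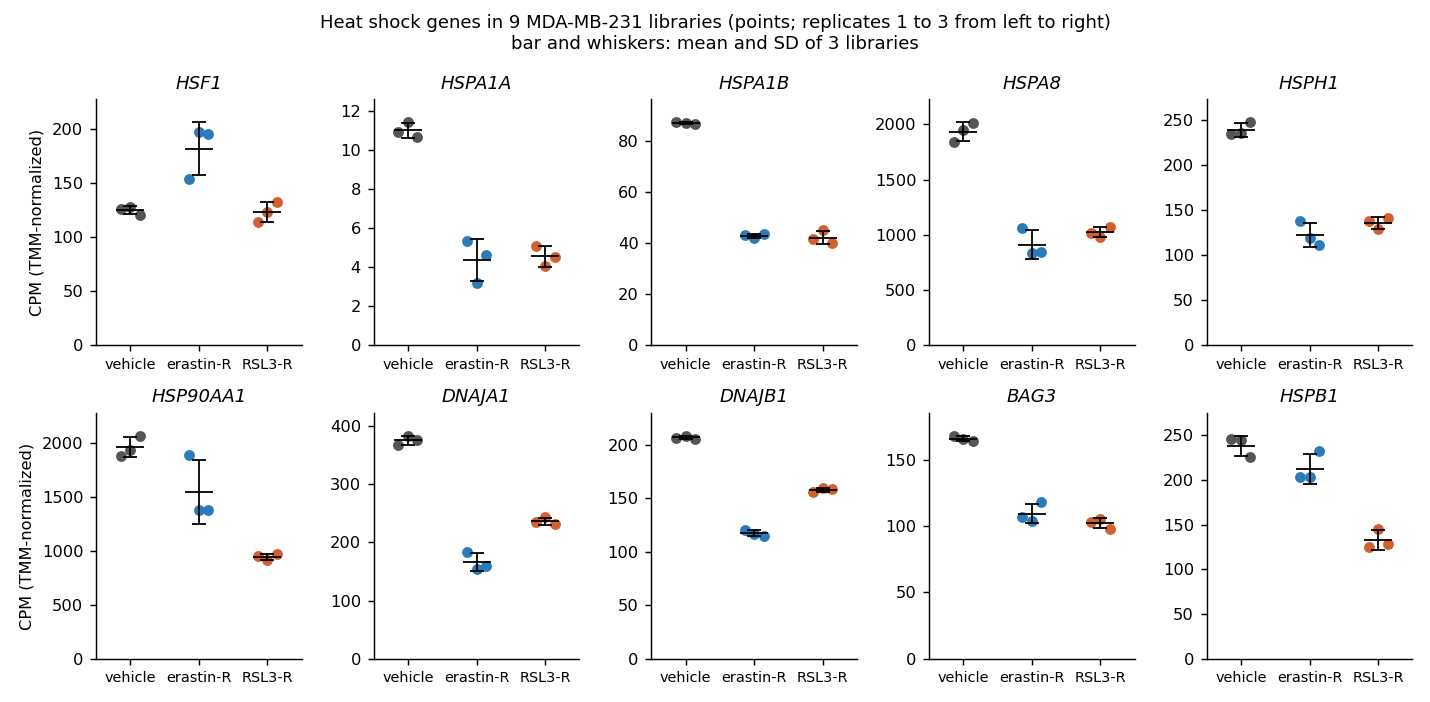
CPM after TMM scaling (y axis, from 0) of the 10 genes in each of the 9 libraries (points, replicates 1 to 3 from left to right), by group, with the mean (bar) and SD (whiskers) of 3 libraries. HSPA1B lies between 86.4 and 87.4 CPM in vehicle cells and between 39.8 and 44.9 CPM in all 6 libraries of surviving cells, whereas for HSF1 all 3 erastin-R libraries, and 1 of 3 RSL3-R libraries, are above the vehicle range.

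HSF1 (ENSG00000185122, chr8:144291591-144314722, plus strand), the regulator, rose in erastin-R cells, where 8 of the other 9 genes fell. It had 126.0, 128.2 and 120.6 CPM in the vehicle libraries, 153.5, 197.2 and 195.7 CPM in erastin-R and 113.9, 123.4 and 132.5 CPM in RSL3-R. All erastin-R libraries were above all vehicle libraries, with replicate 1 the lowest of them, and the RSL3-R libraries lay on both sides of the vehicle range. The log2 fold change of HSF1 RNA for erastin-R was 0.54 (standard error 0.09, edgeR adjusted p = 1.66e-04). In RSL3-R cells the log2 difference was -0.02 with a 95% interval from -0.21 to 0.17 (edgeR adjusted p = 0.879). HSF1 is mainly controlled at the protein, and its protein was not measured here.

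The inducible HSP70 pair fell in both kinds of surviving cells. HSPA1B (ENSG00000204388) had 87.4, 86.8 and 86.4 CPM in vehicle, 42.9, 41.9 and 43.4 CPM in erastin-R and 41.3, 44.9 and 39.8 CPM in RSL3-R libraries. HSPA1A (ENSG00000204389) had 10.9, 11.4 and 10.7 CPM in vehicle, 5.3, 3.18 and 4.62 CPM in erastin-R and 5.09, 4.04 and 4.5 CPM in RSL3-R libraries. Neither gene's surviving cells reached the vehicle range. Summed, the pair fell from 97.9 ± 0.687 CPM (SD, n = 3) in vehicle to 47.1 ± 1.73 CPM in erastin-R and 46.6 ± 2.34 CPM in RSL3-R libraries. For the sum, the log2 fold change was -1.06 (standard error 0.06, edgeR adjusted p = 2.07e-08) for erastin-R and -1.07 (standard error 0.06, edgeR adjusted p = 1.54e-08) for RSL3-R. Taken separately, HSPA1A changed by -1.33 and -1.28 and HSPA1B by -1.02 and -1.05 on the log2 scale in erastin-R and RSL3-R cells, with edgeR adjusted p-values of 2.90e-05 or less. HSPA1A rests on only 50 to 185 counts per library and was 11.2% ± 0.341 (SD, n = 3) of the pair's counts in vehicle, 9.22% ± 2 for erastin-R and 9.79% ± 1.4 for RSL3-R.

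HSPA8 (ENSG00000109971, chr11:123057489-123063230, minus strand), the HSP70 protein of unstressed cells that also uncoats clathrin vesicles and serves chaperone-mediated autophagy, had 1841, 1950 and 2016 CPM in vehicle libraries. It had 1061, 833 and 840 CPM in erastin-R and 1017, 981 and 1071 CPM in RSL3-R libraries, so that the vehicle libraries stood clear of all 6 others. HSPA8 fell by a log2 fold change of -1.09 (standard error 0.08, edgeR adjusted p = 1.65e-07) for erastin-R and of -0.92 (standard error 0.08, edgeR adjusted p = 8.47e-07) for RSL3-R. HSPH1 (ENSG00000120694, chr13:31134974-31162388, minus strand), an HSP110 protein that exchanges the nucleotide of HSP70, had 234, 235 and 248 CPM in vehicle, 137, 119 and 112 CPM in erastin-R and 138, 128 and 141 CPM in RSL3-R libraries. HSPH1 followed HSPA8, with log2 fold changes of -0.96 (edgeR adjusted p = 1.68e-07) and -0.82 (edgeR adjusted p = 8.23e-07).

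HSP90AA1 (ENSG00000080824, chr14:102080738-102139699, minus strand) encodes the stress-inducible HSP90 of the cytosol. Its vehicle libraries had 1881, 1934 and 2067 CPM, its erastin-R libraries 1886, 1374 and 1374 CPM and its RSL3-R libraries 950.2, 911 and 967 CPM. Erastin-R replicate 1 was within the vehicle range while the other erastin-R libraries were below it, and the 3 RSL3-R libraries were the lowest of all. RSL3-R was lower than vehicle by a log2 fold change of -1.06 (standard error 0.10, edgeR adjusted p = 1.27e-06). In erastin-R cells it was -0.34 (standard error 0.10, edgeR adjusted p = 0.00936). Without erastin-R replicate 1 it was -0.51 (edgeR adjusted p = 1.16e-11), and with quantile normalization and limma it was -0.11 and no longer passed (adjusted p = 0.311). Its paralog HSP90AB1, which is made at all times and shares 16.6% of its 50-base words with other genes, fell by -0.29 (edgeR adjusted p = 0.00154) in erastin-R and by -0.6 (edgeR adjusted p = 4.32e-06) in RSL3-R cells on the log2 scale.

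The J-domain genes fell in both, and further in erastin-R cells. DNAJA1 (ENSG00000086061, chr9:33025211-33039907, plus strand), a farnesylated partner of HSPA8, had 366, 382 and 376 CPM in vehicle, 184, 155 and 159 CPM in erastin-R and 234, 243 and 231 CPM in RSL3-R libraries. DNAJB1 (ENSG00000132002, chr19:14514770-14529770, minus strand), which also binds HSF1 in its inactive state, had 207, 209 and 206 CPM in vehicle, 121, 117 and 115 CPM in erastin-R and 156, 159 and 159 CPM in RSL3-R libraries. For DNAJA1 and for DNAJB1 the 3 groups were fully separated, in the order erastin-R, RSL3-R, vehicle. DNAJA1 changed by a log2 fold change of -1.18 (standard error 0.07, edgeR adjusted p = 1.05e-08) in erastin-R and -0.67 (standard error 0.07, edgeR adjusted p = 1.87e-06) in RSL3-R cells. DNAJB1 changed by -0.82 (standard error 0.05, edgeR adjusted p = 3.22e-08) and -0.39 (standard error 0.05, edgeR adjusted p = 3.16e-05).

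BAG3 (ENSG00000151929, chr10:119651370-119677819, plus strand), which links HSP70 to small heat shock proteins and selective autophagy, had 168, 166 and 164 CPM in vehicle, 107, 104 and 118 CPM in erastin-R and 103, 105 and 98.1 CPM in RSL3-R libraries. All surviving cells were below vehicle, by a log2 fold change of -0.6 (standard error 0.06, edgeR adjusted p = 2.67e-06) in erastin-R and -0.7 (standard error 0.06, edgeR adjusted p = 7.05e-07) in RSL3-R cells. HSPB1 (ENSG00000106211, chr7:76302544-76304295, plus strand), the small heat shock protein also called HSP27, had 245, 244 and 225 CPM in vehicle, 203, 203 and 232 CPM in erastin-R and 125, 145 and 128 CPM in RSL3-R libraries. For RSL3-R it fell, with a log2 fold change of -0.84 (standard error 0.07, edgeR adjusted p = 6.47e-07). The erastin-R libraries overlapped the vehicle range, with a log2 difference of -0.16, a 95% interval from -0.32 to -0.0057 and an edgeR adjusted p of 0.0746. That difference passed with upper quartile scaling (-0.22, edgeR adjusted p = 0.0219), with quantile normalization (-0.2, limma adjusted p = 0.036) and without erastin-R replicate 3 (-0.23, edgeR adjusted p = 0.0223).

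**Figure D3:**
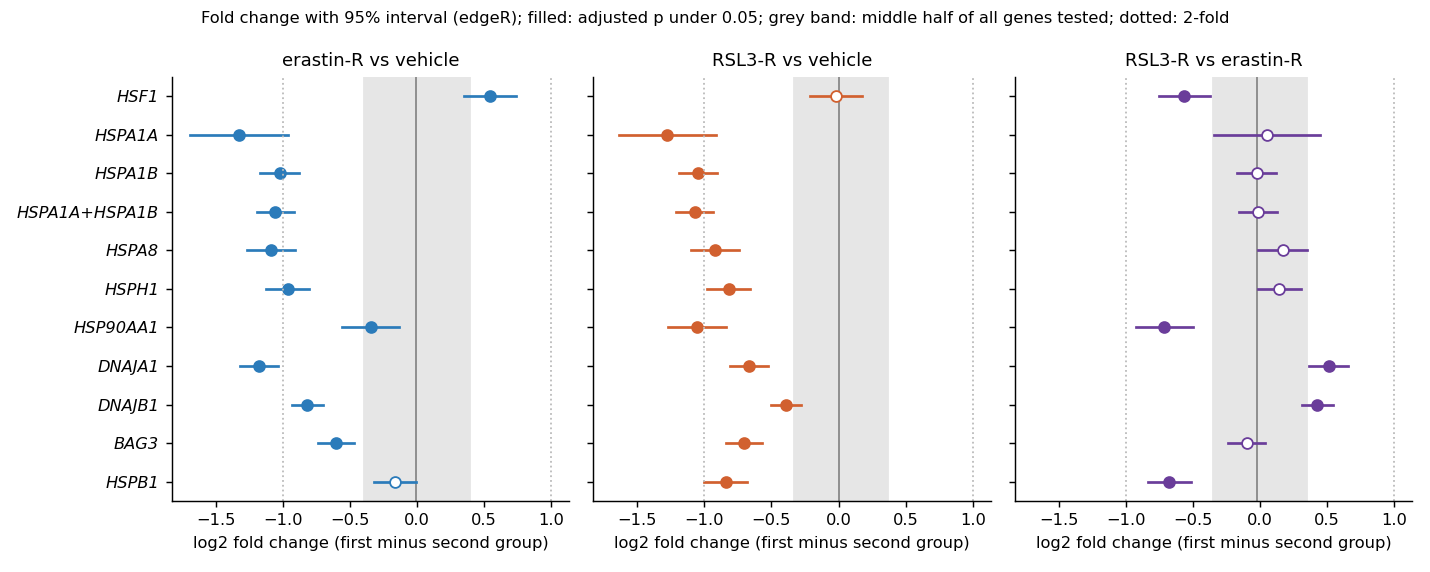
Log2 fold change (x axis) of the 10 genes and of the summed count of HSPA1A and HSPA1B (rows) in the 3 comparisons, with 95% intervals from edgeR; filled points have an adjusted p under 0.05, the grey band is the interquartile range of all 16188 genes and dotted lines mark a 2-fold change. Against vehicle, 8 genes for erastin-R and 9 for RSL3-R are filled to the left of 0, and HSF1 alone is filled to the right, in erastin-R cells.

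RSL3-R cells were then compared with erastin-R cells directly, which tests whether the changes from vehicle differ. Of the 10 genes, 3 were lower in RSL3-R cells (HSF1, HSP90AA1 and HSPB1), 2 were higher (DNAJA1 and DNAJB1) and 5 did not pass the test, where 26.9% of all genes tested were lower and 22.3% higher. HSP90AA1 was lower by a log2 difference of -0.71 (95% interval -0.93 to -0.50, edgeR adjusted p = 5.38e-05), HSPB1 by -0.68 (95% interval -0.84 to -0.52, edgeR adjusted p = 6.70e-06) and HSF1 by -0.56 (95% interval -0.76 to -0.37, edgeR adjusted p = 1.57e-04). DNAJA1 was higher by 0.51 (95% interval 0.37 to 0.65, edgeR adjusted p = 3.00e-05) and DNAJB1 by 0.43 (95% interval 0.31 to 0.54, edgeR adjusted p = 1.94e-05). In each of these 5 genes the RSL3-R libraries did not overlap the erastin-R libraries, as was so for 29.5% of all genes with RSL3-R lower and 25.6% with RSL3-R higher.

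HSPA1A, HSPA1B, HSPA8, HSPH1 and BAG3 overlapped between RSL3-R and erastin-R libraries. The interval of the difference was narrow for the summed HSPA1A and HSPA1B count, from -0.16 to 0.12 on the log2 scale around -0.02 (edgeR adjusted p = 0.851), and for BAG3 it was -0.24 to 0.03 (edgeR adjusted p = 0.203). For HSPA8 the difference was 0.17 (95% interval -0.01 to 0.35, edgeR adjusted p = 0.112) and for HSPH1 0.14 (95% interval -0.02 to 0.31, edgeR adjusted p = 0.126). Without erastin-R replicate 1 both passed, at 0.29 (edgeR adjusted p = 1.36e-06) for HSPA8 and 0.23 (edgeR adjusted p = 4.85e-04) for HSPH1, which made 3 genes lower and 4 higher. They also passed with upper quartile scaling, at 0.27 (edgeR adjusted p = 0.0183) and 0.25 (edgeR adjusted p = 0.0167). That scaling moved the median of all genes in this comparison from -0.02 to 0.08, and the share of calls that were higher from 45.4% to 58.9%.

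Levels of different genes were compared per gene length, as the FPKM that the authors deposited. In vehicle cells HSPA8 (395 ± 18.7 FPKM, SD, n = 3) and HSP90AA1 (370 ± 18.8 FPKM) were the highest of the 10 genes. Their ranges overlapped, but HSPA8 was above HSP90AA1 within every vehicle library. The ranges of HSPB1 (144 ± 6.58 FPKM) and DNAJA1 (136 ± 3.03 FPKM) also overlapped. HSPB1 was above DNAJA1 within every vehicle library, though in replicate 3 only by 136.53 against 136.47 FPKM. These 2 genes were followed by BAG3 (59.8 ± 0.631 FPKM), DNAJB1 (55.8 ± 0.338 FPKM), HSPA1B (34.1 ± 0.139 FPKM), HSPH1 (28.2 ± 0.957 FPKM), HSF1 (23.3 ± 0.682 FPKM) and HSPA1A (4.38 ± 0.147 FPKM), none of which overlapped its neighbour. In erastin-R cells HSP90AA1 (290 ± 54.3 FPKM) was above HSPA8 (185 ± 25.7 FPKM) in every library, and HSF1 (33.8 ± 4.73 FPKM) was above HSPA1B (16.7 ± 0.335 FPKM) and HSPH1 (14.4 ± 1.5 FPKM). In RSL3-R cells HSPA8 (209 ± 9.68 FPKM) was above HSP90AA1 (178 ± 5.69 FPKM). The ranges of DNAJA1 (85.8 ± 2.04 FPKM) and HSPB1 (80.7 ± 6.41 FPKM) overlapped there, with DNAJA1 above HSPB1 within every RSL3-R library. Those of HSPA1B (16.5 ± 1.01 FPKM) and HSPH1 (16.1 ± 0.798 FPKM) overlapped too, and their order changed between RSL3-R libraries. HSF1 (23.0 ± 1.78 FPKM) was above HSPA1B and HSPH1 in RSL3-R cells too. The FPKM of HSPA1A and HSPA1B are low by the reads that map to both.

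Ratios of FPKM within a library showed unequal changes among partners. HSP90AA1 stood at 0.511 ± 0.0168 (SD, n = 3) times HSP90AB1 in vehicle, 0.491 ± 0.0467 for erastin-R and 0.372 ± 0.007 for RSL3-R, where all 3 libraries were below the other 6. Erastin-R replicate 1 (0.543) was above the vehicle range of 0.499 to 0.530 and the other erastin-R libraries (0.476 and 0.454) were below it. The ratio of DNAJA1 to DNAJB1 was 2.43 ± 0.0438 in vehicle, 1.9 ± 0.134 for erastin-R and 2.01 ± 0.0457 for RSL3-R, and both kinds of surviving cells lay below vehicle. HSPA5, the HSP70 protein of the endoplasmic reticulum, rose from 845 ± 7.22 CPM in vehicle to 1298 ± 14 CPM in erastin-R (log2 fold change 0.62, edgeR adjusted p = 1.70e-07) and 1449 ± 22.3 CPM in RSL3-R cells (0.78, edgeR adjusted p = 1.98e-08). Its ratio to HSPA8 thereby went from 0.542 ± 0.0208 to 1.79 ± 0.222 and 1.76 ± 0.0584.

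**Figure D4:**
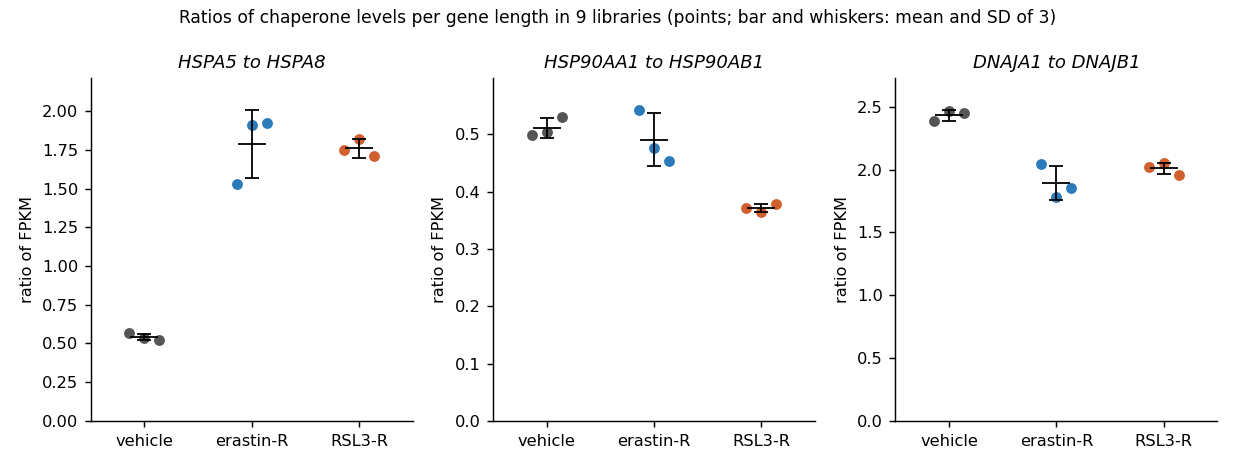
Ratio of FPKM (y axis, from 0) of HSPA5 to HSPA8, of HSP90AA1 to HSP90AB1 and of DNAJA1 to DNAJB1 in the 9 libraries (points), with the mean (bar) and SD (whiskers) of 3 libraries per group. HSPA5 is below HSPA8 in vehicle cells (0.542) and above it in erastin-R (1.79) and RSL3-R cells (1.76).

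Other genes of the same system were taken from lists of known chaperones, whose counts are to be read against the shares of all genes tested, 26.8% lower and 27.1% higher for erastin-R and 24.9% lower and 23.8% higher for RSL3-R. Among 17 other cytosolic heat shock genes or heat shock factors, 10 of 18 entries passed the filter (HSPA14 has 2 entries), with 4 lower and 1 higher for erastin-R and 6 lower and 1 higher for RSL3-R, and medians of -0.21 and -0.39. HSF2, another heat shock factor, rose in erastin-R cells (log2 fold change 0.71, edgeR adjusted p = 9.93e-06), from 25.6 ± 1.3 to 41.8 ± 3.12 CPM (SD, n = 3). Its RSL3-R libraries had 31.8 ± 1.93 CPM and were also all above the vehicle libraries. HSPA4L, an HSP110 protein, fell in RSL3-R cells (-0.67, edgeR adjusted p = 2.85e-05), and HSPA1L, an HSP70 paralog beside the HSPA1A gene with a mean of 26.9 counts, fell in erastin-R cells (-1.19, edgeR adjusted p = 0.00192). HSPA1L had 2.02 ± 0.249 CPM in vehicle and 2.04 ± 0.319 CPM in RSL3-R libraries. It was higher in RSL3-R than in erastin-R cells (1.21, edgeR adjusted p = 0.00195). HSPA6, an HSP70 protein that is made almost only under strong stress, was too low to test. It had 17, 7 and 9 counts in vehicle, 6, 6 and 8 in erastin-R and 5, 7 and 14 in RSL3-R libraries, so the groups overlapped.

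Among 26 co-chaperones of HSP70 and HSP90, 25 passed the filter. For erastin-R 13 were lower and 6 higher (median -0.27), and for RSL3-R 14 were lower and 1 higher (median -0.3). FKBP5, a peptidyl-prolyl isomerase that binds HSP90 in steroid receptor complexes and is also a glucocorticoid target, had the largest change of the list in RSL3-R cells. It went from 237 ± 9.89 CPM (SD, n = 3) in vehicle to 148 ± 10.8 CPM in erastin-R (log2 fold change -0.67, edgeR adjusted p = 1.14e-06) and 79.7 ± 2.11 CPM in RSL3-R cells (-1.57, edgeR adjusted p = 4.45e-10). STIP1, which bridges HSP70 and HSP90, fell in both (-0.6, edgeR adjusted p = 2.24e-04, and -0.72, edgeR adjusted p = 5.36e-05). BAG1, a nucleotide exchange factor of HSP70, fell in erastin-R cells (-0.68, edgeR adjusted p = 2.78e-06), and AHSA1, an activator of the HSP90 ATPase, fell in RSL3-R cells (-0.76, edgeR adjusted p = 8.41e-06). BAG1 also had 48.7 ± 2.12 CPM in vehicle and 36.4 ± 1.31 CPM in RSL3-R libraries. AHSA1 had 151 ± 11.9 CPM in vehicle and 114 ± 14.8 CPM in erastin-R libraries.

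A list of 22 other genes that HSF1 is known to activate, which shares members with the other lists, had 18 genes that passed the filter. Of these, 11 were lower and 3 higher for erastin-R (median -0.34), and 12 were lower and 2 higher for RSL3-R (median -0.47). UBB, a polyubiquitin gene, fell in erastin-R cells (log2 fold change -0.6, edgeR adjusted p = 7.63e-07), though 25.7% of its 50-base words occur in other genes. UBB also had 253 ± 3.91 CPM (SD, n = 3) in vehicle and 198 ± 4.79 CPM in RSL3-R libraries. HSPE1, the mitochondrial cofactor of HSPD1, fell in both (-0.6, edgeR adjusted p = 5.41e-04, and -1.22, edgeR adjusted p = 1.63e-06), and 22.7% of its words are shared. The TRiC complex, a cytosolic ring that folds actin and tubulin, was lower in most of its subunits. Of its 8 genes, 7 were lower for erastin-R (median -0.36) and all 8 for RSL3-R (median -0.48), and the largest fall was that of TCP1 in RSL3-R cells (-0.9, edgeR adjusted p = 2.03e-08). The median of the 10 heat shock genes lay below that of each of these lists in both comparisons, and that difference was not tested.

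**Figure D5:**
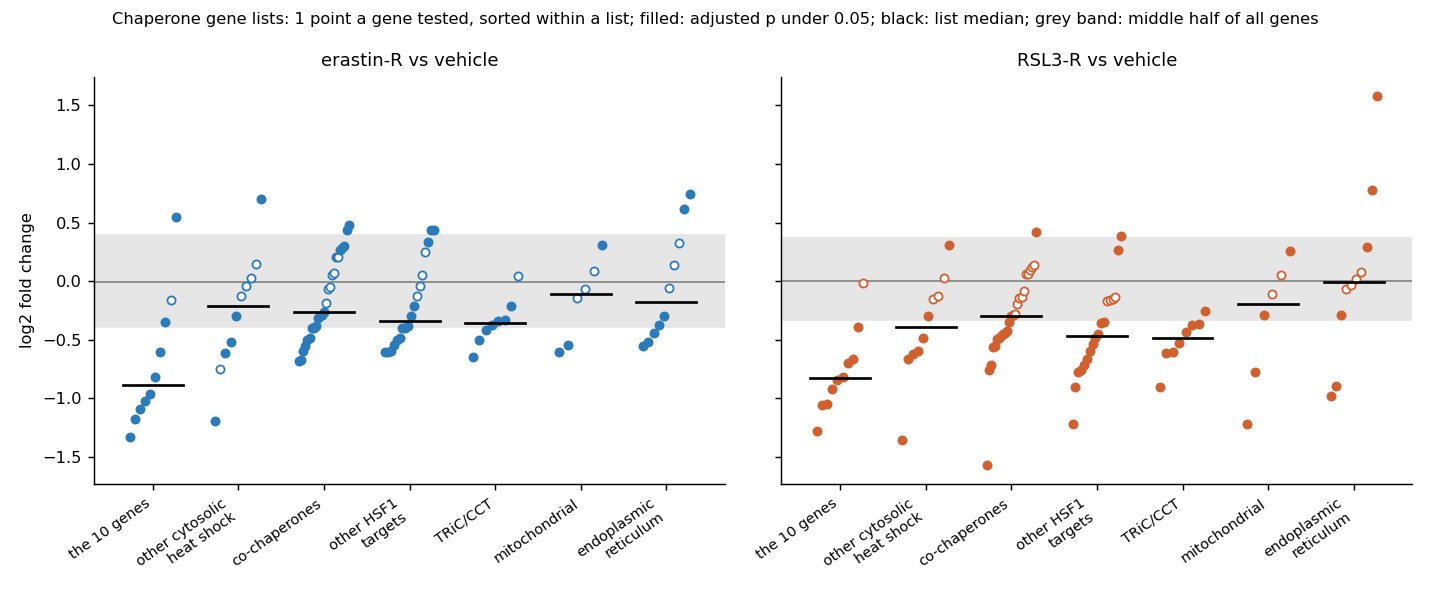
Log2 fold change against vehicle (y axis) of each gene tested in the 10 heat shock genes and 6 further lists of chaperone genes, in erastin-R cells (left) and RSL3-R cells (right); filled points have an adjusted p under 0.05, black lines are list medians and the grey band is the interquartile range of all genes. The medians of the 10 genes are -0.89 and -0.83, and those of the endoplasmic reticulum list are -0.18 and -0.01.

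The genes whose pattern over the 9 libraries was most like that of the summed HSPA1A and HSPA1B count were looked up among 10258 protein-coding genes with a mean of at least 100 counts, by the root mean square difference of log2 CPM after centring. The 3 closest were TIMELESS (0.0463), PFKFB4 (0.0587) and CHAF1A (0.0627), which are known for replication fork protection, control of glycolysis and histone deposition at replication. HSPA8 came at rank 49 (0.137) and HSPH1 at rank 65 (0.145), as the nearest of the other 8 genes.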

How the data were processed

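Polyadenylated RNA of 9 MDA-MB-231 libraries was sequenced by the study. Reads were aligned with HISAT2 2.0.5 and counted over exons with featureCounts 1.5.0-p3, per the submitters' processing notes; the strand setting is not given in the sources used here. The authors deposited raw counts and FPKM per gene for each library (their methods call the latter RPKM). Only the counts were tested. The 58735 genes matched GENCODE 29 (GRCh38).

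Counts were filtered with filterByExpr, scaled by TMM and fitted with the quasi-likelihood test of edgeR 4.0.16 (R 4.3.3) over all 9 libraries without a replicate block, with Benjamini-Hochberg adjustment over 16188 genes, an adjusted p threshold of 0.05 and, for differential expression, a log2 fold change of at least 1 in either direction. A count of 3 was worth 0.174 to 0.195 CPM. The scripts were tested on simulated counts. Alternatives were DESeq2 1.42.0, upper quartile and total count scaling, quantile normalization with limma 3.58.1, no filter, only the groups compared, a replicate block, leaving out each library, and the summed HSPA1A and HSPA1B count. From each gene list and comparison, at most the 4 called genes with the largest change and a mean of at least 10 counts could be named. Values of HSPA5, HSP90AB1 and HSPA6 are given as paralogs. The genes, lists and tests were chosen with earlier results of these data known. Replicates of a group differed by more than sampling noise, so each counts as 1 library. Chi-square per gene was 23.9 and 23.3 for erastin-R replicate 1 against erastin-R replicates 2 and 3. It was 2.43 to 5.28 for all other pairs within a group. Of the marker genes chosen at the start, 1 is not reported here.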

Additional observations from a re-analysis of the deposited data

Results flagged for a closer look

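For 5 of the 10 genes the change from vehicle differed between the 2 kinds of surviving cells, by edgeR's test of RSL3-R against erastin-R cells. Of all genes tested, 26.9% were lower and 22.3% higher in RSL3-R than in erastin-R cells. The 3 lower and 2 higher of the 10 genes are near those shares. The log2 difference, RSL3-R minus erastin-R, was -0.71 for HSP90AA1, -0.68 for HSPB1 and -0.56 for HSF1, and 0.51 for DNAJA1 and 0.43 for DNAJB1. The edgeR adjusted p of each was 1.57e-04 or less. All 5 kept their direction and passed the threshold in all 17 alternatives.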

How the results depend on the processing

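Of the main results, 196 values under alternative settings kept direction and side of the threshold, and 5 changed sign without passing it, all of them the summed HSPA1A and HSPA1B count in RSL3-R against erastin-R cells (main value -0.02). It was 0.084 with upper quartile scaling, 0.090 with quantile normalization and 0.021 with only those groups in the fit, and ranged from -0.054 to 0.055 when 1 library was left out. Of the values for single genes, 482 kept both. The sign of HSF1 in RSL3-R cells turned with upper quartile scaling (0.028), quantile normalization (0.027) and without RSL3-R replicate 1, within a range of -0.048 to 0.071 when 1 library was left out. In RSL3-R against erastin-R cells it turned for HSPA1B (0.076, 0.079 and 0.013 with upper quartile, quantile and only those groups, and -0.074 to 0.050 with 1 library left out, above 0 without RSL3-R replicate 1 or 3), for BAG3 (0.00097 with upper quartile and 0.00069 with quantile) and for HSPA1A (-0.065 with quantile, and -0.13 without erastin-R replicate 2 to 0.21 without erastin-R replicate 1). HSPB1 and HSP90AA1 in erastin-R cells, and HSPA8 and HSPH1 between the surviving cells, crossed the threshold as given above, and HSPA8 also without the filter (0.16, edgeR adjusted p = 0.0304) and HSPH1 with quantile normalization (0.23, limma adjusted p = 0.0163). The cause was not tested.

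Upper quartile scaling moved the share of higher genes among those called and changed at least 2-fold between RSL3-R and erastin-R cells from 66.4% to 76.5%, and quantile normalization to 56.1%. Quantile normalization moved that share in RSL3-R against vehicle from 59.6% to 50.4%. Replicate numbers did not pair the libraries. The mean correlation of deviations was -0.0049 over the 9 pairs of libraries with the same number, none of which reached 0.1, and 0.0026 over 18 others, and 2 of 9 libraries correlated best with their own number. With a replicate block 8 genes were lower and 1 higher in erastin-R cells, 9 were lower in RSL3-R cells, and 3 were lower and 2 higher between them. Over all genes the block gave 4229 higher and 4209 lower, 3656 and 3852, and 3494 and 4120, against 4390 and 4345, 3850 and 4029, and 3615 and 4354 without it. With 3 libraries a group and bulk RNA, HSPA1A (50 to 185 counts) and HSPA6 (5 to 17 counts) are limited by depth.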

Other observations

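In the endoplasmic reticulum list of 10 genes, 2 were higher and 5 lower in erastin-R cells, and 3 were higher and 3 lower in RSL3-R cells. Of all genes tested, 27.1% were higher and 26.8% lower in erastin-R cells and 23.8% and 24.9% in RSL3-R cells, so the RSL3-R counts of this list are near the share of all genes. DNAJB9, a J-domain protein of that compartment that is induced by unfolded protein stress, went from a mean of 18.4 CPM in vehicle to 30.8 in erastin-R (log2 fold change 0.74, edgeR adjusted p = 6.99e-06) and 55.1 in RSL3-R cells (1.58, edgeR adjusted p = 4.11e-09). CALR, a lectin chaperone of glycoproteins, fell in both (-0.55, edgeR adjusted p = 1.61e-06, and -0.89, edgeR adjusted p = 1.82e-08). Its partner CANX fell in erastin-R cells (-0.52, edgeR adjusted p = 2.42e-05) and was higher in RSL3-R than in erastin-R cells (0.59, edgeR adjusted p = 1.06e-05). SDF2L1, which works with HSPA5 and J-domain proteins, fell in RSL3-R cells (-0.98, edgeR adjusted p = 0.00100).

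Of the 6 mitochondrial chaperone genes, 1 was higher and 2 lower in erastin-R cells, and 1 was higher and 3 lower in RSL3-R cells, to be read against the same shares of all genes. HSPD1, the mitochondrial HSP60, fell in both (-0.54, edgeR adjusted p = 1.99e-05, and -0.78, edgeR adjusted p = 8.44e-07), and 18.4% of its 50-base words occur in other genes. TRAP1, the mitochondrial HSP90, rose in erastin-R cells (0.31, edgeR adjusted p = 0.00234) and fell in RSL3-R cells (-0.29, edgeR adjusted p = 0.00459). HSPA9, the mitochondrial HSP70, rose in RSL3-R cells (0.25, edgeR adjusted p = 0.00322).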
